A study of Saccharomyces cerevisiae with 15 samples.

Results

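SUR7 encodes a tetraspan protein of the yeast plasma membrane, and it is the gene next to GAL80 on chromosome XIII. It was described here with 5 others: AIM32, the gene on the other side of GAL80, and FMP45, PUN1, PIL1 and LSP1, which belong to the eisosome but lie on other chromosomes. The 6 genes were taken by name from a table of 5980 nuclear protein-coding genes, and all 6 were found and passed the filter on low counts. They were chosen by name with their read counts across the 5 strains already known, so they count as selected on those counts. Their levels and fold changes are therefore given as descriptions, with no test.

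RNA was sequenced from 5 strains of Saccharomyces cerevisiae in the S288C background, with 3 libraries per strain. Every strain carries the auxotrophic alleles met15Δ0, ura3Δ0, leu2Δ0 and his3Δ1 and overexpresses the nuclease spCas9-NG. BY47419 is the starting strain with no further protein. C0, the first β-carotene strain, also overexpresses HMG1, CrtE, CrtYB and CrtI, and so do the evolved strains C3-06 and C5-63, labelled as intermediates, and C7-143, labelled as the final one. Cultures were grown in rich medium with 20 g/L glucose at 30 °C to an optical density of about 3. Separate cultures are not stated for the 3 libraries, nor whether a strain is 1 clone, so p-values measure only the spread between these libraries, which may be technical.

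Eisosomes are furrows of the yeast plasma membrane. BAR domain proteins, mainly Pil1 and its paralog Lsp1, coat the inner face of the furrow, and tetraspan proteins of the Sur7 family and of the Nce102 family sit in the membrane above them. The compartment holds nutrient permeases such as the arginine permease Can1 and takes part in sensing sphingolipids and membrane stress, in part through the TORC2 kinase complex. Gal80 is the repressor of the activator Gal4, which switches on the galactose genes. Aim32 is a mitochondrial protein and no part of the eisosome.

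Each library held 16144808 to 21586409 counted reads. Levels of 1 gene across strains are given as TMM-scaled read counts relative to library size (CPM), and levels of different genes are compared per length, as the deposited FPKM. Means are ± SD of 3 libraries, and fold changes are log2 ± SE from the edgeR fit. All levels are relative to the other RNA of the library. RNA per cell was not measured, and in bulk cultures a lower level in every cell cannot be told apart from fewer cells that express the gene. Replicate 2 of BY47419 and replicate 1 of C3-06 stood apart from the other libraries of their strains. Between pairs of libraries, chi-square over its degrees of freedom was 109 and 59.9 for the former's pairs and 102 and 73.2 for the latter's, against 11.4 to 40.9 for the other pairs.

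SUR7 was lowest in BY47419, 8.54-fold higher in the first β-carotene strain and lower again in each evolved strain. In BY47419 its libraries held 96.6, 118 and 96.6 CPM. In C0 they held 888, 916 and 853 CPM. The 3 libraries of C0 were thus far above those of BY47419, with no overlap, and the means were 885 ± 31.5 and 104 ± 12.2 CPM, a log2 fold change of 3.09 ± 0.16. This was the 8th highest fold change of the 5814 genes tested. The 7 above it were GAL7, GAL10, GAL1, GAL2 and GAL3 of galactose use, the overexpressed HMG1, and YDR010C.

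The evolved strains stood between these levels. In C3-06 the libraries held 668, 402 and 460 CPM of SUR7, and replicate 1, the library that stood apart, was the highest. In C5-63 they held 237, 260 and 263 CPM. In C7-143 they held 182, 178 and 215 CPM. The strains therefore followed the order C0, C3-06, C5-63, C7-143 and BY47419, and no neighbours in that order overlapped. SUR7 in C7-143 was still above BY47419 while lying a log2 difference of -2.21 ± 0.15 from C0. The single steps were -0.80 ± 0.14 from C0 to C3-06, -1.01 ± 0.14 from C3-06 to C5-63 and -0.40 ± 0.14 from C5-63 to C7-143. Without replicate 1 of C3-06, the step into that strain was -1.04 and the step out of it -0.77, so the size of each rests in part on that library and its sign does not.

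**Figure D1:**
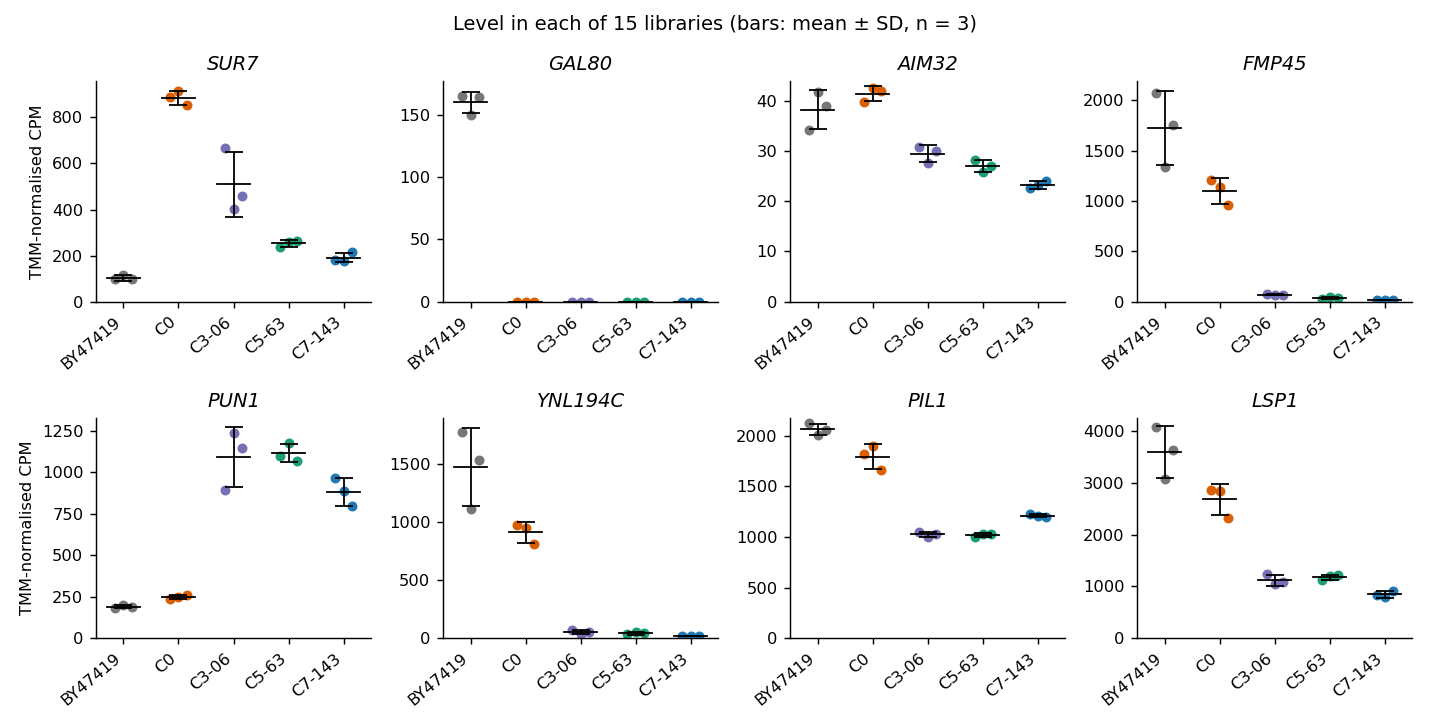
Level of SUR7, GAL80, AIM32, FMP45, PUN1, YNL194C, PIL1 and LSP1 in each of the 15 libraries, 1 panel per gene with its own linear axis from 0, in TMM-scaled CPM, with 1 point per library and bars for the mean ± SD of 3. SUR7 lies at 853 to 916 CPM in C0 and at 96.6 to 118 CPM in BY47419, FMP45 at 12.1 to 13.1 CPM in C7-143, and PUN1 at 795 to 1240 CPM in the evolved strains.

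GAL80 separates SUR7 from AIM32. In R64 coordinates SUR7 (YML052W) lies at chrXIII:170402-171310, GAL80 (YML051W) at chrXIII:171594-172901 and AIM32 (YML050W) at chrXIII:173139-174074, all on the + strand. The gaps between the coding regions are 283 and 237 bases. GAL80 had 165, 150 and 165 CPM in the libraries of BY47419 and 0 reads in each of the 12 libraries of the other strains. With a floor of 3 reads over a strain's libraries it was at least 2351-fold lower in C0, 2722-fold in C3-06, 2749-fold in C5-63 and 2599-fold in C7-143. The labels' genotypes do not name GAL80. The difference in SUR7 thus went with the absence of GAL80 reads between BY47419 and C0, but the 4 strains without GAL80 reads differed among themselves in SUR7.

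The interval behind SUR7 is described because a match to the binding site of Gal4, the activator that Gal80 restrains, lies there. The promoter window of each gene ran from 250 bases before the start codon to 50 after its first base, read from the RefSeq R64 genome. The site searched was CGG, then any 11 bases, then CCG, which is the same pattern on both strands, and 80 of 5979 such windows (1.34%) hold it. The gap between SUR7 and GAL80 holds 1 match, with 111 bases between the end of SUR7 and its first base, and the gap between GAL80 and AIM32 holds 0. It is shown with the matches before PIL1 and RGL1, with 6 bases on either side and the CGG and CCG ends in capitals. The GAL80 match is at chrXIII:171416-171444 (+), the PIL1 match at chrVII:650805-650833 (-) and the RGL1 match at chrXVI:426129-426157 (+).
GAL80 site: atttacCGGcgcactctcgcCCGaacgac
PIL1 site: gaaagaCGGgattccccctcCCGtgtctt
RGL1 site: ctgtcaCGGtcatcactgctCCGacactt
Their first matching bases are at -172, -210 and -98 from the start codons of GAL80, PIL1 and RGL1. In a longer window of 600 bases before to 50 after the start, where 219 of 5977 genes (3.66%) have a match, AIM32, FMP45, PUN1, LSP1, HMG1 and YGR117C have 0, and GAL1, GAL2 and GAL3 have 3, 5 and 1. GAL1, GAL2 and GAL3 have 0 in the shorter window. A match is a run of letters, not a shown binding site. Whether the match behind SUR7 is still present in the strains without GAL80 reads was not analysed here.

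AIM32, on the other side, differed little between the strains that differed most in SUR7. Its libraries held 34.1, 41.7 and 39.0 CPM in BY47419 and 39.8, 42.7 and 41.9 CPM in C0. The groups overlapped, and the log2 fold change was 0.11 ± 0.08. In C3-06 the level was 30.9, 27.6 and 30.0 CPM, in C5-63 28.3, 25.8 and 26.9 CPM and in C7-143 22.6, 23.2 and 24.1 CPM. C3-06 and C5-63 overlapped, and both lay below C0 and above C7-143. Over the whole range from C0 to C7-143, the log2 difference was -0.83 ± 0.08.

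The 18 other genes tested around GAL80 give the local background. In C0 against BY47419, 4 of them were called higher and 2 lower at an adjusted p under 0.05 (edgeR quasi-likelihood test, Benjamini-Hochberg over all genes), where 30.3% of all genes were called. The nearest gene beyond SUR7, YML053C, had a log2 fold change of 0.22 ± 0.09 (adjusted p = 0.0749), and the nearest beyond AIM32, the splicing factor gene RSE1, one of 0.23 ± 0.10 (adjusted p = 0.0915), and neither passed the test. HUG1, a small gene linked to the DNA damage response that starts 12.8 kb before GAL80, rose from 1.75 to 5.03 CPM (log2 1.49 ± 0.25, adjusted p = 0.00079). It was the only one of the 18 called with a change of at least 2-fold, a size that 1.6% of all genes reached with a call. Without replicate 2 of BY47419, 7 of the 18 were called higher instead of 4.

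In the evolved strains the neighbours moved in both directions. In C7-143 against C0, 10 were called higher and 6 lower, where 86% of all genes were called. CAT2, carnitine acetyltransferase, fell from 1180 to 38.9 CPM (log2 -4.92 ± 0.17, edgeR adjusted p = 2.3e-13). CYB2, the lactate dehydrogenase of the mitochondrial intermembrane space, fell by 4.38 ± 0.16 on the log2 scale (adjusted p = 4.12e-13). YML054C-A, the small gene beside it, fell from 66.8 to 5.16 CPM (log2 -3.70 ± 0.21, adjusted p = 5.72e-11). IMD4, an enzyme of guanine nucleotide synthesis, rose by 2.78 ± 0.11 (adjusted p = 7.35e-13), and SPC2 of the signal peptidase by 1.87 ± 0.09 (adjusted p = 1.02e-11). YML053C and RSE1, the nearest genes, rose by 1.19 ± 0.09 and 1.25 ± 0.10 (adjusted p = 1.18e-09 and 2.84e-09). PRM6, at 1.12 CPM in C0, was called lower (log2 -1.03 ± 0.39, adjusted p = 0.0218), a call lost without replicate 2 or 3 of C0 or replicate 1 of C7-143 (0.0850, 0.0766 and 0.0966).

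In C3-06 against C0, 8 neighbours were called higher and 3 lower, where 80.5% of all genes were called. CAT2, CYB2 and YML054C-A fell by 3.48 ± 0.16, 2.85 ± 0.14 and 1.88 ± 0.18 on the log2 scale, and IMD4 and HUG1 rose by 1.65 ± 0.10 and 1.55 ± 0.19. All 5 passed the edgeR test. In the later steps YML054C-A fell by a further 1.02 ± 0.19 from C3-06 to C5-63. YML045W and YML039W among the 18 are Ty element genes with near-identical copies elsewhere, so their counts are uncertain and their values are not given. Both are included in the neighbours called higher in C7-143, which were 10 against C0.

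**Figure D2:**
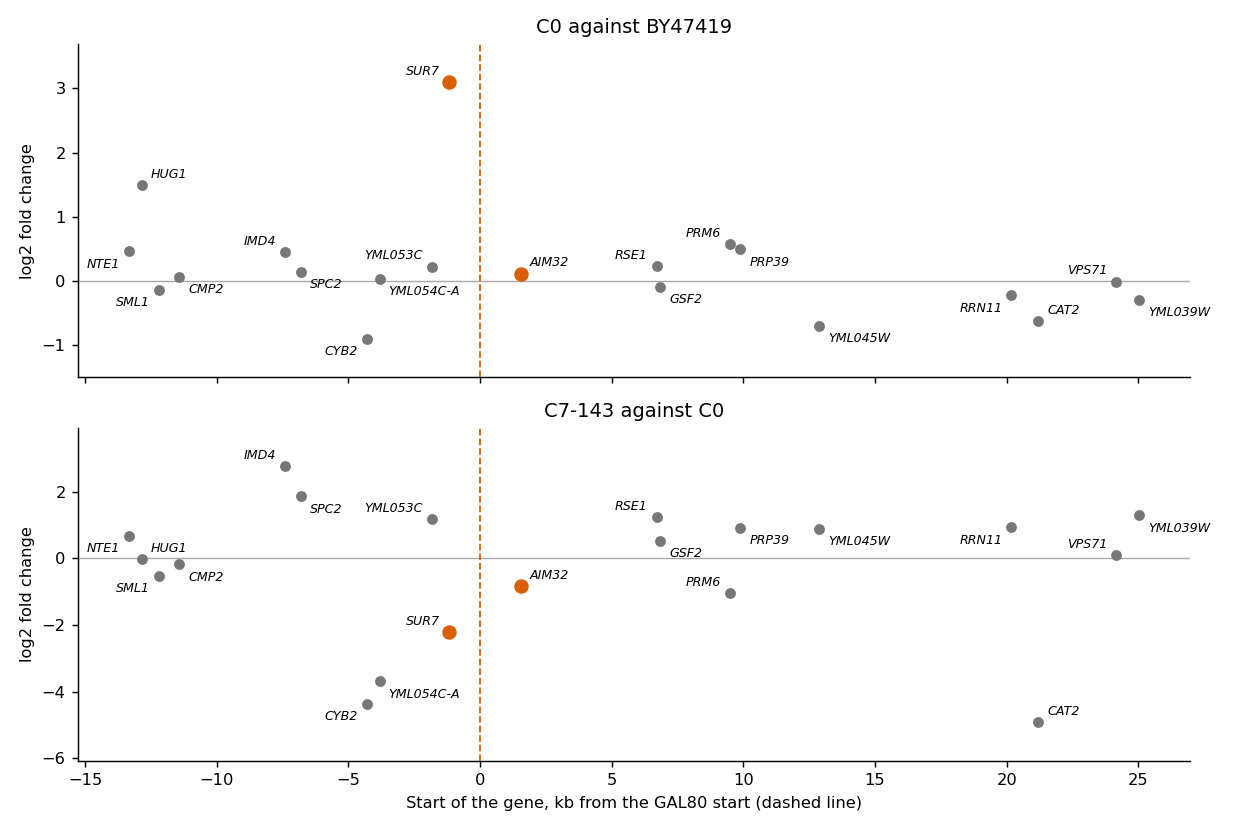
Log2 fold change of the 20 genes around GAL80 against the distance of their start from the GAL80 start in kb, in C0 against BY47419 (top) and C7-143 against C0 (bottom), with SUR7 and AIM32 in orange and GAL80 as the dashed line. In the upper panel SUR7 stands at 3.09 and HUG1 at 1.49, and in the lower panel CAT2, CYB2, YML054C-A and IMD4 lie farther from 0 than SUR7 at -2.21.

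The other genes of the Sur7 family followed other patterns. FMP45 (YDL222C, chrIV:60872-61801, - strand) is a paralog of SUR7 that is linked to sporulation and to the sphingolipid content of the cell. Its libraries held 2066, 1340 and 1758 CPM in BY47419 and 1210, 1137 and 958 CPM in C0, so that it was lower in C0 (log2 -0.64 ± 0.17) while SUR7 was higher. In C3-06 it stood at 71.9, 65.7 and 67.0 CPM, 16.2-fold below C0. In C5-63 it stood at 26.9, 48.8 and 39.9 CPM, and in C7-143 at 13.1, 12.1 and 12.6 CPM. No pair of strains overlapped. The means of C0 and C7-143, 1102 ± 130 and 12.6 ± 0.492 CPM, differ 87.5-fold (log2 -6.45 ± 0.22), the 8th lowest value of the 5814 genes.

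YNL194C, the nearest relative of FMP45 in the family and not among the 6 genes, was tested. It fell from 915 ± 88.8 CPM in C0 to 54.8 ± 16.1 in C3-06 (log2 -4.06 ± 0.24, edgeR adjusted p = 3.89e-10) and to 21.7 ± 2.20 in C7-143 (log2 -5.40 ± 0.26, edgeR adjusted p = 1.17e-11). In BY47419 it stood at 1477 ± 336 CPM. The difference between C0 and BY47419 was called (log2 -0.69 ± 0.21, edgeR adjusted p = 0.0227), but the call was lost without replicate 1 or 3 of BY47419 (adjusted p = 0.102 and 0.0695) and without replicate 2 or 3 of C0 (0.0521 and 0.0784).

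PUN1 (YLR414C, chrXII:953353-954144, - strand), a tetraspan protein linked to nitrogen starvation and to metal stress, was higher in the evolved strains than in C0, where FMP45 was lower. Its libraries held 183, 198 and 190 CPM in BY47419 and 239, 251 and 263 CPM in C0. They held 891, 1240 and 1150 CPM in C3-06, 1100, 1176 and 1070 CPM in C5-63 and 964, 885 and 795 CPM in C7-143. All 9 libraries of the evolved strains were above all 6 of the other strains. Within the evolved strains, C3-06 overlapped with both others, and C5-63 lay above C7-143. The log2 difference was 2.12 ± 0.11 from C0 to C3-06, or 4.36-fold, and 1.81 ± 0.11 from C0 to C7-143.

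Per length, the strains differed in the make-up of the tetraspan family. The FPKM sums below are given as the base of each share. They lack the TMM factors, which run from 0.804 to 1.20 over the libraries, so the sums are not compared between strains. SUR7, FMP45, PUN1 and YNL194C together held 3204 ± 464 FPKM in BY47419 and 3250 ± 142 FPKM in C0. Of that sum SUR7 held 3.10% ± 1.01 in BY47419 and 28.0% ± 1.32 in C0. FMP45 held 48.1% ± 0.966 in BY47419 and 33.9% ± 1.68 in C0, and YNL194C held 42.3% ± 1.73 and 28.9% ± 0.759. In C3-06 the sum was 2231 ± 175 FPKM, and PUN1 held 66.4% ± 9.42 of it. In C7-143 the sum was 1399 ± 50.7 FPKM, and PUN1 held 81.6% ± 2.83, SUR7 15.6% ± 2.54, YNL194C 1.77% and FMP45 0.996%. The leading gene of the family per length was therefore FMP45 in BY47419 and C0 and PUN1 in the 3 evolved strains. SUR7 led in no strain. The coding regions are only distantly alike, with identity taken over all positions of the alignment, gaps included. SUR7 and FMP45 are identical at 48.1% of positions with no shared run over 10 bases, and FMP45 and YNL194C at 57.5% with none over 14.

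**Figure D3:**
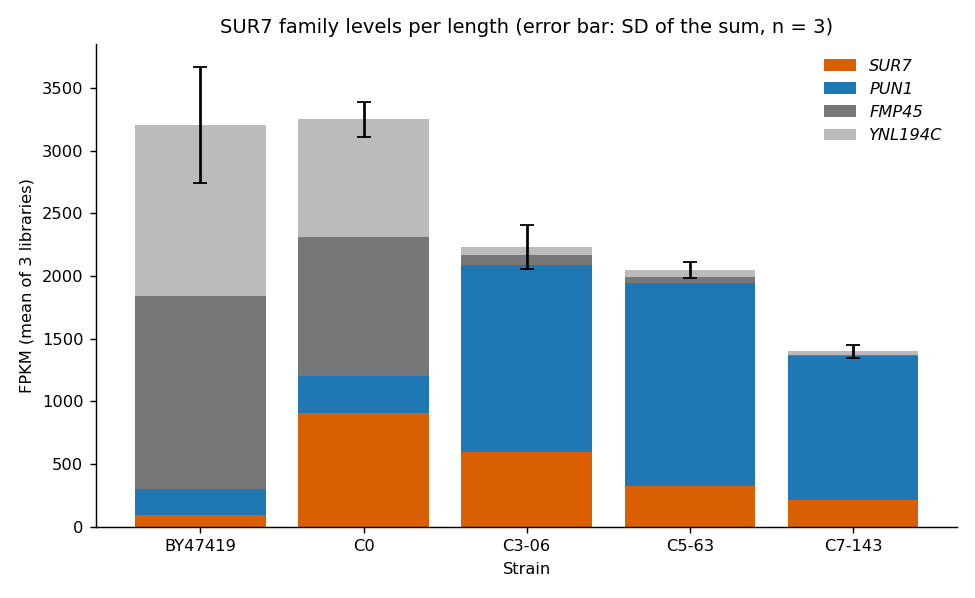
Deposited FPKM of the tetraspan genes SUR7, PUN1, FMP45 and YNL194C, stacked as the mean of 3 libraries per strain, with the SD of the sum as an error bar. FMP45 is the largest layer in BY47419 (1545 FPKM) and C0 (1104 FPKM), and PUN1 is in C3-06 (1491 FPKM), C5-63 (1624 FPKM) and C7-143 (1143 FPKM).

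The coat genes were high in every strain and lower in the evolved ones. PIL1 (YGR086C, chrVII:649598-650617, - strand), the main coat protein, without which eisosomes collapse, had 2120, 2005 and 2058 CPM in BY47419 and 1819, 1902 and 1659 CPM in C0. It had 1049, 1000 and 1034 CPM in C3-06, 996, 1030 and 1033 CPM in C5-63 and 1225, 1206 and 1200 CPM in C7-143. BY47419 was highest, C0 followed, and C7-143 lay above C3-06 and C5-63, which overlapped. The log2 difference was -0.80 ± 0.08 from C0 to C3-06 and -0.57 ± 0.08 from C0 to C7-143.

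LSP1 (YPL004C, chrXVI:550632-551657, - strand), its paralog in the coat, showed a wider range. Its libraries held 4064, 3062 and 3622 CPM in BY47419 and 2856, 2848 and 2328 CPM in C0. They held 1244, 1042 and 1081 CPM in C3-06, 1119, 1196 and 1215 CPM in C5-63 and 839, 790 and 917 CPM in C7-143. Only C3-06 and C5-63 overlapped, and only through replicate 1 of C3-06, the library that stood apart. From C0 the log2 difference was -1.25 ± 0.12 to C3-06 and -1.66 ± 0.12 to C7-143. Per length, LSP1 stood at 1.72 ± 0.195 times PIL1 in BY47419, 1.48 ± 0.0833 in C0, 1.09 ± 0.0815 in C3-06 and 1.15 ± 0.0267 in C5-63. In C7-143 the ratio was 0.697 ± 0.0560, and all 3 libraries of that strain were under 1 while the other 12 were above it. The coding regions of both genes are identical at 68.5% of alignment positions, gaps included, with a longest shared run of 27 bases. The read length is not given in the sources used here, so some reads may have been assigned to either gene.

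The promoters of both coat genes are shown because, unlike those of AIM32, FMP45 and PUN1, they hold the stress response element. It is the motif of the activators Msn2 and Msn4. The letters searched were AGGGG or its reverse complement CCCCT, which 1292 of 5979 windows (21.6%) hold. They are in capitals, and both windows, at chrVII:650568-650867 and chrXVI:551608-551907, are read from the - strand.
PIL1 promoter: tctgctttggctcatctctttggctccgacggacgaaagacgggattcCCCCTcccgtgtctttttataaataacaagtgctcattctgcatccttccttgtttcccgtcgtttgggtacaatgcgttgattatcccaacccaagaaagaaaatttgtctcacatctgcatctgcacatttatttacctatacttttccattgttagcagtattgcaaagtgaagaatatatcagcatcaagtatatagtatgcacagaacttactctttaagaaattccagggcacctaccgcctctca
LSP1 promoter: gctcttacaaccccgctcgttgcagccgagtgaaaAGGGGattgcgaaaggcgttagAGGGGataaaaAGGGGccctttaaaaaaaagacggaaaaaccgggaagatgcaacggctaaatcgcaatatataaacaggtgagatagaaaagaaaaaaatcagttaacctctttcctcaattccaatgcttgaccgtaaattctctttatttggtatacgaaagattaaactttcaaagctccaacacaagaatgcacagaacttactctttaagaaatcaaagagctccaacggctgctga
LSP1 has AGGGG at -215, -193 and -182 from its start codon. PIL1 has CCCCT at -202, inside the match to the Gal4 site shown with that of GAL80. AIM32, FMP45 and PUN1 have neither motif in this window, which says only that these letters are not there. The stress motif was not confined to the coat genes among the other promoters searched. YNL194C of the tetraspan family holds 1 match at -190, and GAL80 holds 2, the nearer at -232. NCE102, FHN1, GAL1, GAL2, GAL3, HMG1, RGL1 and YGR117C hold none.

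The 6 genes can be set beside the share of all genes whose groups did not overlap. In C0 against BY47419, SUR7 and PUN1 were higher in every library, FMP45, PIL1 and LSP1 lower, and AIM32 overlapped. Of all genes, 40.9% did not overlap in that comparison, 16.3% higher and 24.6% lower. In C3-06 against C0, PUN1 alone was higher and the other 5 were lower with no overlap, where 81.4% of all genes did not overlap, 41.4% higher and 40% lower. The same held in C7-143 against C0, where 87.3% of all genes did not overlap, 43.4% higher and 43.9% lower. Between C3-06 and C5-63, SUR7 and FMP45 were lower in C5-63 and the other 4 overlapped. Of all genes, 57.1% did not overlap there, 28.8% higher and 28.3% lower. Between C5-63 and C7-143, PIL1 was higher and the other 5 lower in C7-143, where 62% of all genes did not overlap, 30.9% higher and 31.1% lower. The comparisons with C0 share its 3 libraries.

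A pair of broad gene groups moved with the evolved strains. The 132 cytosolic ribosomal protein genes held 0.390% ± 0.0437 of reads in BY47419, 0.451% ± 0.0224 in C0, 2.54% ± 0.407 in C3-06, 3.42% ± 0.228 in C5-63 and 5.03% ± 0.568 in C7-143. A list of 22 stress genes held 8.80% ± 0.212, 7.90% ± 0.347, 3.53% ± 0.907, 1.57% ± 0.207 and 0.875% ± 0.111 in the same order. Their part in the levels of SUR7, FMP45, YNL194C, PUN1, PIL1 and LSP1 was not tested.

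The other genes of the compartment were taken from lists of 57 genes in all. In C3-06 against C0, 22 of the 57 were called higher and 27 lower, and in C7-143 against C0, 23 higher and 30 lower, near the 80.5% (41.1% higher, 39.4% lower) and 86% (42.7% and 43.3%) called among all genes. Of the 10 further scaffold and tetraspan genes, in C3-06 7 were called lower and 3 higher, with a median log2 fold change of -0.96 against 0.02 over all genes, and in C7-143, 7 were lower and 2 higher, with a median of -0.94 against -0.02.

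NCE102, the tetraspan protein that senses sphingolipids and keeps Pil1 assembled, fell from 4525 ± 464 CPM in C0 to 1222 ± 320 in C3-06 (log2 -1.89 ± 0.17, edgeR adjusted p = 3.72e-08) and to 420 ± 45.0 in C7-143 (log2 -3.43 ± 0.18, edgeR adjusted p = 2.44e-11). It stood at 5508 ± 515 CPM in BY47419, and its difference to C0 did not pass the test (log2 -0.28 ± 0.17, edgeR adjusted p = 0.209). FHN1, its paralog, rose from a low level of 6.06 ± 1.30 CPM in C0 to 46.2 ± 14.2 in C7-143 (log2 2.92 ± 0.24, edgeR adjusted p = 5.89e-09). Per length, NCE102 was still the higher of the pair there, at 829 against 89.9 FPKM. SEG1, which sets the length of eisosomes, fell by 1.20 ± 0.08 on the log2 scale from C0 to C3-06 (edgeR adjusted p = 1.75e-09). EIS1, needed for eisosome formation, fell by 1.51 ± 0.10 from C0 to C7-143, where it was called too. PST2, a flavodoxin-like protein of the compartment, rose by 1.04 ± 0.09 from C0 to C3-06 (edgeR adjusted p = 1.25e-08). It then fell by 0.52 ± 0.08 from C3-06 to C5-63 (edgeR adjusted p = 0.000267). In C7-143 it was only 0.34 ± 0.08 above C0 (edgeR adjusted p = 0.00125).

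The genes named next were each called in C7-143 against C0 (edgeR adjusted p under 0.05), and their values are log2 fold changes ± SE unless a fold is given. Among 22 genes of TORC2 and related signalling, 6 were called higher and 14 lower in C7-143 against C0, where 86% of all genes were called (42.7% higher and 43.3% lower). Their median was -0.60, against -0.02 over all genes. YPK1, the main kinase downstream of TORC2, rose 2.83-fold, while its paralog YPK2 fell by 2.06 ± 0.17. RHO1, the GTPase of cell wall integrity, rose by 1.51 ± 0.08. SLM1, which carries the signal from eisosomes to TORC2, fell by 1.26 ± 0.07, and LST8, a subunit of both TOR complexes, fell by 1.73 ± 0.09. Of the 4 permeases, the uracil permease FUR4 rose by 1.49 ± 0.14 and the other 3 were called lower, CAN1 by -0.66 ± 0.07 the methionine permease MUP1 by -0.83 ± 0.21 and the tryptophan permease TAT2, whose call was lost with library totals alone (edgeR adjusted p = 0.319).

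Of the 20 genes of sphingolipid synthesis, 13 were called higher and 6 lower in C7-143 against C0, beside the same 86% of all genes. Their median was 0.49, against -0.02 over all genes. LCB1 and LCB2, the subunits of serine palmitoyltransferase, which makes the first committed step, rose by 2.59 ± 0.09 and 1.92 ± 0.11. LIP1 and LAC1 of ceramide synthase rose by 1.51 ± 0.08 and 1.21 ± 0.07. YPC1, a ceramidase, fell by 2.21 ± 0.12. PMA1, the proton pump that marks the membrane outside eisosomes, rose from 329 ± 13.5 CPM in C0 to 1848 ± 149 in C7-143 (log2 2.49 ± 0.11). The part of the ribosomal protein and stress shares given above in these values was not tested.

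**Figure D4:**
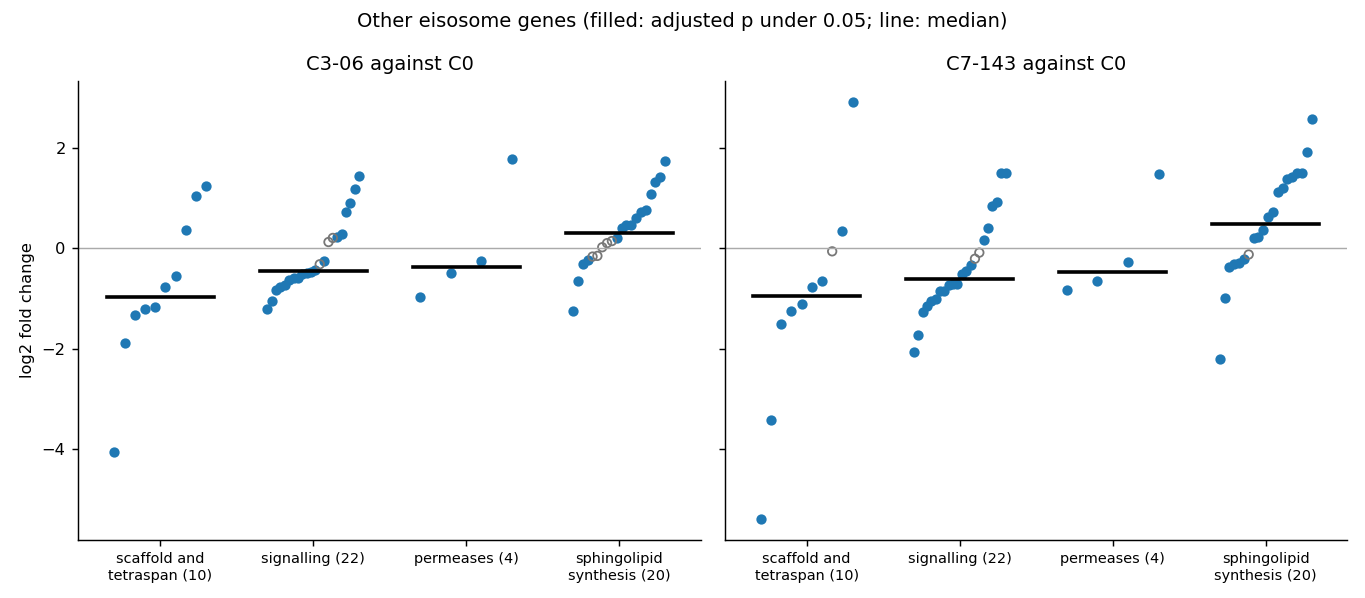
Log2 fold changes of the genes of each list in C3-06 against C0 and C7-143 against C0, 1 point per gene, with called genes filled and the list median as a bar. The scaffold and tetraspan list has medians of -0.96 and -0.94, and the sphingolipid list medians of 0.31 and 0.49.

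In the other comparisons fewer of the 57 genes were called. In C0 against BY47419, 6 were higher and 18 lower, where 12.2% and 18% of all genes were. SEG1 fell by 0.52 ± 0.08 (edgeR adjusted p = 0.000634), SLM1 by 0.41 ± 0.07 (0.00121) and PMA1 by 0.54 ± 0.10 (0.00189). Of the 20 sphingolipid genes, 3 were called higher and 4 lower. CSH1, a subunit for the synthesis of mannosylated sphingolipids, rose by 0.38 ± 0.08 (edgeR adjusted p = 0.00382). Its paralog SUR1 fell by 0.34 ± 0.09 (0.0111), a call lost in several alternatives, such as library totals alone (0.194). SCS7 fell by 0.47 ± 0.09 (edgeR adjusted p = 0.00212). The counts of the 57 genes rest on single libraries. Without replicate 1 of BY47419 they were 1 higher and 9 lower, without its replicate 3 they were 2 and 11, and without replicate 2 of C0 they were 3 and 10. Without replicate 3 of C0, 3 were called higher. Scaling by library totals alone turned the split to 15 higher and 6 lower. From C3-06 to C5-63, 6 were higher and 13 lower (40.8% of all genes called, 19.8% higher and 21% lower), 7 lower without replicate 1 of C3-06. From C5-63 to C7-143, 10 were higher and 13 lower (48.8% of all genes called, 25% higher and 23.9% lower).

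The genes whose levels were most like SUR7 included galactose genes and none of the eisosome genes. Among 5398 genes with a mean of at least 10 CPM, the log2 level over the 15 libraries correlated most with SUR7 for GAL3 (Pearson r = 0.93), HMG1 (0.92), RGL1 (0.91), GAL2 (0.90) and YGR117C (0.90). GAL3 encodes the galactose sensor that relieves Gal80, GAL2 the galactose permease and RGL1 a regulator of Rho1 signalling. HMG1 encodes HMG-CoA reductase and is overexpressed in 4 of the strains, so its reads may come from the added copy. GAL1, galactokinase, was 7th at 0.89. The other genes described here had r of 0.28 (AIM32), 0.09 (PUN1), 0.07 (FMP45), -0.06 (LSP1) and -0.16 (PIL1). These are descriptions over 15 libraries of 5 strains, in which libraries of 1 strain share its level.

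The values show where the patterns were alike and where they were not. GAL2 had 30.0 ± 1.36 CPM in BY47419 and 9341 ± 1196 in C0. Its libraries held 6761, 3958 and 4609 CPM in C3-06, with replicate 1 highest and replicate 2 lowest, the same order as for SUR7. That order was not particular to these genes. AIM32, FMP45, PIL1, LSP1 and NCE102 had it too, PUN1 had the reverse, and replicate 1 is the library that stood apart. In C5-63 GAL2 had 1645 ± 219 CPM and in C7-143 1369 ± 92.8. GAL3 had 63.2 ± 4.32, 650 ± 98.4, 186 ± 29.3, 87.0 ± 11.9 and 72.7 ± 2.02 CPM across the strains, listed from BY47419 and C0 to the evolved ones. HMG1 had 79.8 ± 3.49, 2084 ± 95.2, 999 ± 76.2, 519 ± 116 and 604 ± 74.9 CPM, so that its mean, unlike that of SUR7, was not lower in C7-143 than in C5-63, and the libraries of both overlapped. RGL1 varied less, with 119 ± 4.65, 290 ± 15.1, 185 ± 7.31, 199 ± 14.1 and 149 ± 3.30 CPM, and its C3-06 and C5-63 libraries overlapped. YGR117C varied less still, with 102 ± 4.70, 139 ± 10.7, 137 ± 12.7, 113 ± 5.90 and 116 ± 3.84 CPM in the same order. Unlike for SUR7, its C3-06 libraries overlapped with those of C0, and its C5-63 libraries with those of C7-143. Likeness in shape therefore went with changes of very different size.

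**Figure D5:**
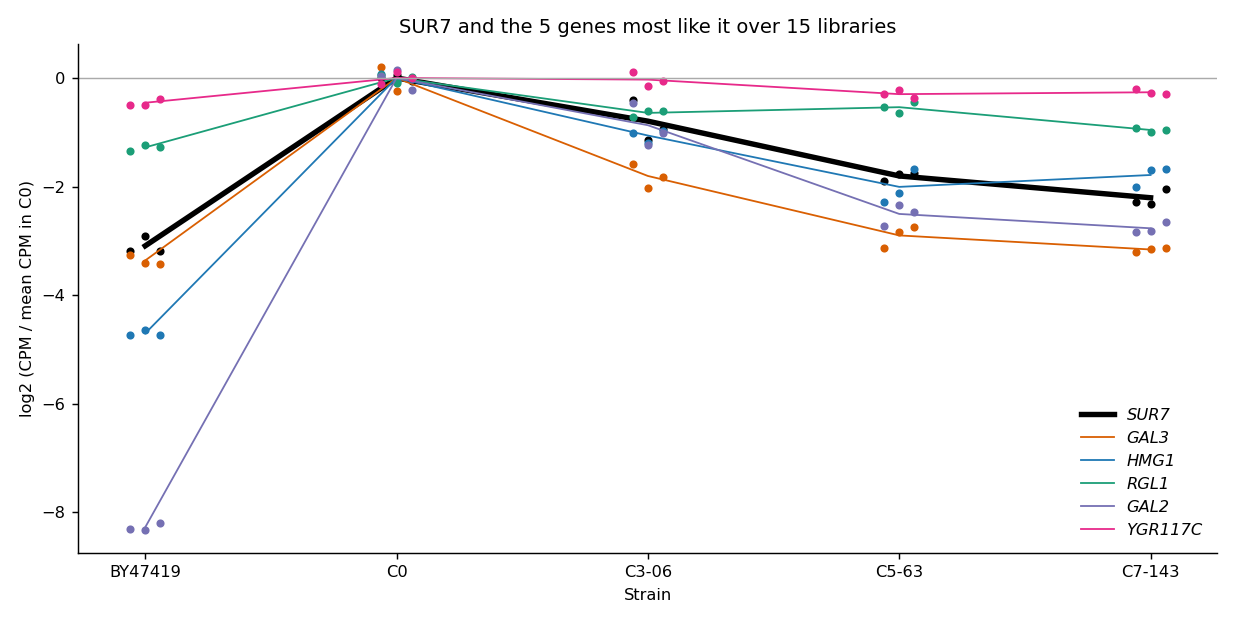
Log2 of the CPM of SUR7 and of the 5 genes most like it over 15 libraries, relative to the mean of C0, with 1 point per library and a line through the strain means. All 6 genes are highest in C0 and lowest in BY47419, from YGR117C with a small difference to GAL2, at 30.0 and 9341 CPM, with a large one.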

How the data were processed

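RNA of 5 strains with 3 libraries each was analysed by strain label. For every gene and library, the authors deposited a raw count of reads and an FPKM value in 1 table. Per the submitters' processing notes HISAT2 was used, with no version. No counter, strand setting or genome build is given in the sources used here, so reads from antisense or overlapping genes cannot be told apart. Of 5980 gene identifiers 5977 are in R64 and 5972 match its start and end, so positions follow R64. Of the deposited lengths 99.2% are multiples of 3, so they are coding lengths.

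Low genes were removed from the counts by filterByExpr of edgeR 4.0.16 in R 4.3.3 (at least 10 reads, total 15), which kept 5814 genes. After TMM scaling, a quasi-likelihood model of all 15 libraries with strain as factor gave 5 comparisons, two-sided, with Benjamini-Hochberg adjustment over all genes and calls under 0.05. Deposited FPKM values were used only to compare genes per length. The 6 genes, the gene lists and the rules were chosen with earlier results of these data known. Named are the 6 genes and GAL80, up to 4 genes with the lowest adjusted p per list with listed genes given by value, called neighbours changed at least 2-fold (Ty element genes without values), and the genes with the highest r to each of the 6 (5 for SUR7, 3 for the others), on log2 CPM with a prior count of 2. Limits for 0 reads take 3 reads and cover counting error only. Promoters came from R64, that of SUR7 is not reported here, and coding DNA identity was used in place of protein identity.

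Alternatives were DESeq2 1.42.0, its size factors, library totals, no filter, 5 CPM in 3 libraries, only the strains compared, a replicate block and leaving out each library. The limit for pairing was a correlation over 0.1 for every same-numbered pair, in deviations from the strain means. It was passed in C0 against BY47419 (0.116 to 0.321 for 3 pairs, -0.268 to 0.132 for the 6 others) and in no other comparison. No batch or day is named in the labels. The fit was tested on simulated counts with 200 changed genes.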

Additional observations from a re-analysis of the deposited data

How the results depend on the processing

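The fold changes of the 6 genes kept their direction under every alternative, except those of PIL1 and PUN1 from C3-06 to C5-63, which lay near 0. PIL1 was -0.01 and became 0.094 with library totals alone, 0.012 with DESeq2 or its size factors, and -0.030 to 0.0060 without 1 library. PUN1 was 0.03 and ranged from -0.099 to 0.13 without 1 library. Library totals alone moved the median gene by 0.13, 0.22, 0.10, -0.18 and 0.12 in the comparisons in order (C0 against BY47419, C3-06 against C0, C5-63 against C3-06, C7-143 against C5-63, C7-143 against C0). With it, PUN1 and PIL1 were 0.55 and -0.050 in C0 against BY47419; AIM32, FMP45 and PIL1 were -0.29, -3.81 and -0.60 in C3-06 against C0; AIM32, PUN1, PIL1 and LSP1 were -0.38, -0.51, 0.081 and -0.64 in C7-143 against C5-63; AIM32 and PIL1 were -0.69 and -0.43 in C7-143 against C0.

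Genes called in C0 against BY47419 were 712 higher and 1049 lower, and 1279 and 318 with library totals. In C5-63 against C3-06, 1151 were higher and 1221 lower, with 761 lower under that scaling, and in C7-143 against C5-63 1451 and 1387 became 714 and 2314. The 57 listed genes became 15 higher and 6 lower, 10 and 7, and in the last comparison 25 lower. The neighbours called higher became 7 in C0 against BY47419 and 2 in C7-143 against C5-63. Fitting only the strains compared left 566 genes and 9 of the 57 called lower in C0 against BY47419. Apart from the construction of these alternatives, the cause was not tested.

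Leaving out 1 library gave 377 to 976 genes higher and 568 to 1247 lower in C0 against BY47419. Of the 57, it gave 1 to 9 higher and 9 to 19 lower there, and 7 to 15 lower in C5-63 against C3-06. Neighbours called higher ranged over 3 to 7 and 1 to 3 in these comparisons. The lowest counts in C0 against BY47419 were without replicate 1 of BY47419.

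The pairing held in C0 against BY47419, where the replicate block gave 725 genes higher and 1057 lower, and 6 and 17 of the 57. It changed no call named in the text there.

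GAL80 had 0 reads in each strain other than BY47419, so the limits on its fold change rest on the assumed 3 reads and on depth. HUG1 and FHN1 were at low counts.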

Other observations

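The genes most like the other 5 were also found over the 15 libraries, as a description. FMP45 was closest to NQM1, a transaldolase (Pearson r = 0.998), SKN1 of cell wall glucan synthesis (0.997) and FMP46, a mitochondrial protein (0.997). Its r to LSP1 was 0.98, but this ranked only 429th of 5398 genes. LSP1 itself was closest to MCP1 (0.996), GPB2 (0.995) and ECI1 (0.994). PUN1 was closest to YBR056W-A (0.996), to CHS1, a chitin synthase (0.995), and to MIM2 (0.994), and it ran opposite to PIL1 (-0.99). PIL1 itself was closest to MHP1 (0.992), PYC2 (0.990) and DHH1 (0.988). AIM32 was closest to BSC5 (0.983), YNR068C (0.982) and RCF1 (0.979). Libraries of 1 strain share its level, and nothing follows from these values about shared control.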
